A study of Homo sapiens with 21 samples.

Results

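A set of 9 genes of fatty acid use in the liver were followed in HepG2 cells, an established human liver cancer cell line, exposed to caffeine for 6 h. They were PPARA, CPT1A, CPT2, ACADM, ACADVL, HADHA, PDK4, ANGPTL4 and PLIN2. All 9 were found by gene symbol through their Ensembl IDs among the 37637 features of the count table. Gene expression was measured by RNA sequencing of polyadenylated RNA in 21 samples, with 3 samples at each of 7 caffeine concentrations (0, 0.01, 0.1, 1, 10, 100 and 1000 µM). Every group, the 0 µM controls included, was kept in serum-free DMEM during the exposure, after the serum medium had been taken off and the cells rinsed with PBS, so each level below belongs to serum-deprived cells. Caffeine was dissolved in DMEM. The design text states biological replicates, and it names a different compound, coumarin, for the control, whereas the sample labels call the control caffeine at 0 µM.

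PPARA is a nuclear receptor that is activated by fatty acids and binds DNA together with a retinoid X receptor. In hepatocytes it drives genes for the import of fatty acids into mitochondria, for beta-oxidation and for ketone body synthesis, above all during fasting. CPT1A and CPT2 carry fatty acids across the mitochondrial membranes as carnitine esters, ACADVL, ACADM and HADHA act in the beta-oxidation spiral, PLIN2 coats lipid droplets, ANGPTL4 is a secreted inhibitor of lipoprotein lipase, and PDK4 switches off pyruvate dehydrogenase. The last 3 are well-known PPARA target genes, as is CPT1A.

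At 1000 µM caffeine, PLIN2 rose 1.84-fold and CPT1A rose 1.78-fold over the controls, while CPT2 fell to 0.776 of the control level. These were the 3 changes among the 8 genes with enough counts to be tested. PPARA itself and the 3 beta-oxidation enzymes did not pass the test at 1000 µM, ANGPTL4 had at most 21 counts in a library, and PDK4 at most 3. No gene of the 9 passed against the controls at 0.01, 0.1, 1, 10 or 100 µM. Of 74 other genes of fatty acid oxidation and its control, 33 fell and 10 rose at 1000 µM against the controls, where 20.6% of all genes fell and 20.6% rose. Against the mean of 0.01 to 100 µM, 23 fell and 11 rose, where 14.2% of all genes fell and 16.3% rose. These 34 became 19 without 1000 µM replicate 3.

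**Figure D1:**
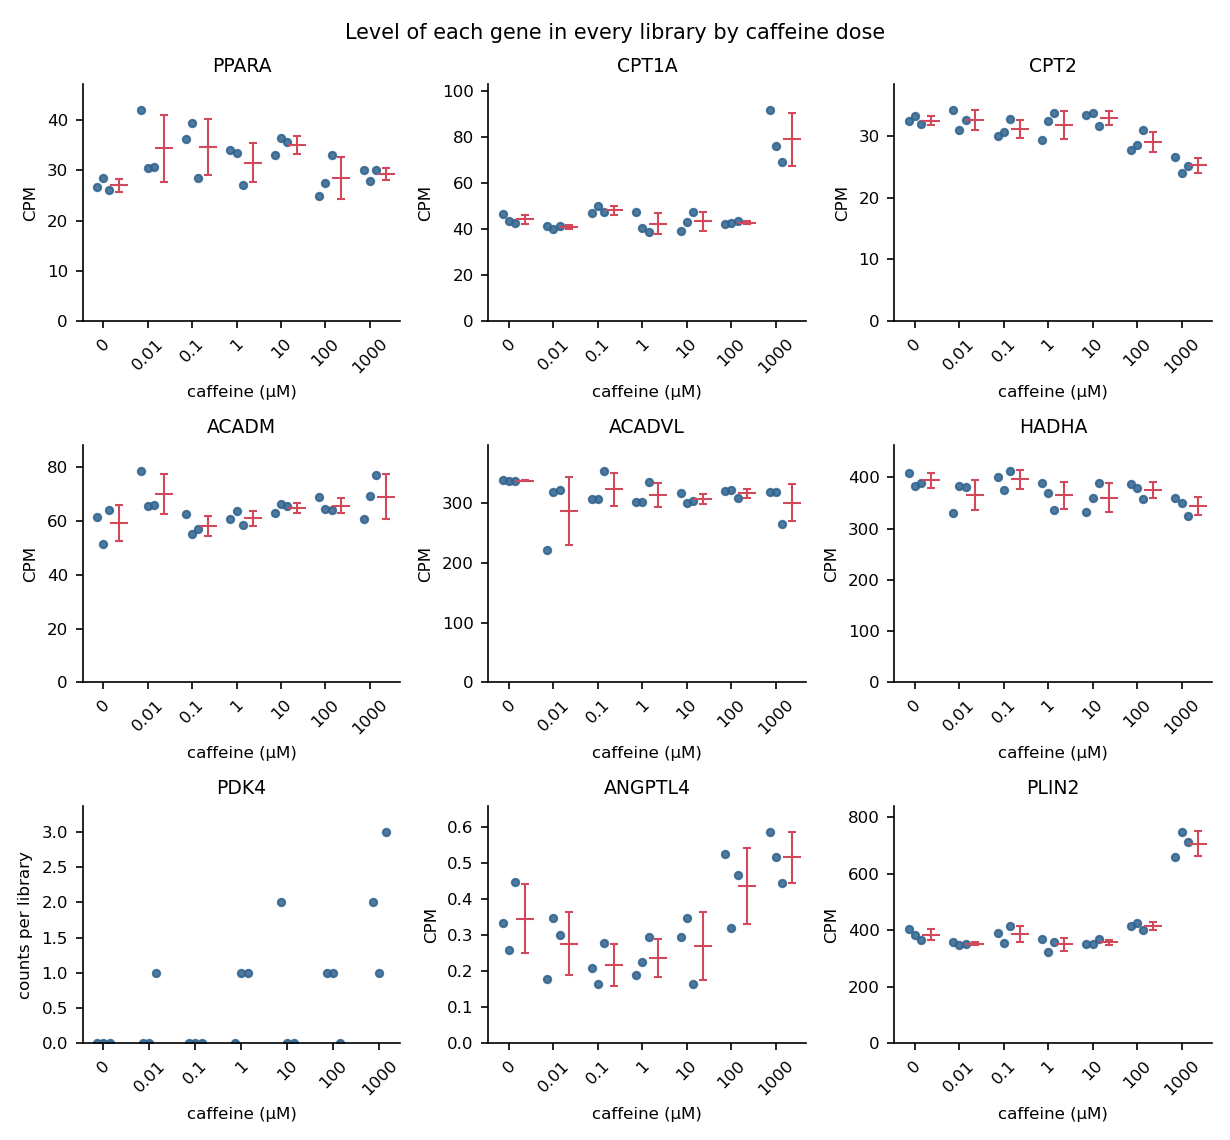
Level of the 9 genes in every library by caffeine concentration (µM), in CPM (counts scaled to the TMM library size), with raw counts per library for PDK4. Points are the 21 libraries, and red marks give the mean and the SD of 3 libraries; CPT1A and PLIN2 stand apart at 1000 µM, where CPT2 has its lowest values.

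Total counts ranged from 28043623 to 40827833 per library (median 32497612), and mitochondrial genes took 4.95% to 14.2% of them. A gene with 0 counts could therefore still be present at up to 0.0735 to 0.107 CPM (here of the total counts), taking 3 counts as the limit and counting error only. The library that deviated most from its own group was the 0.01 µM replicate 1 (root mean square deviation 0.426 on the log2 scale, mitochondrial share 11.7%), followed by replicates 1 and 3 at 1 µM (0.355 and 0.352), against 0.148 for the closest library. All 9 hepatocyte markers were detected, among them ALB, AFP, APOB and HNF4A, and together they gave 28071 to 30717 CPM at 0 µM and 26164 to 27747 CPM at 1000 µM. Within that sum the means of APOA1 (1740 to 847 CPM), APOA2 (2961 to 1666) and AFP (3497 to 2163) were lower at 1000 µM than at 0 µM and that of APOB (5190 to 7649) was higher. Of the 4 blood cell markers, which summed to 4.86 to 4.92 CPM at 0 µM and 2.31 to 3.10 CPM at 1000 µM, PTPRC and CD3E had at most 1 count in any library and CD14 had 14 to 47. The 4 fibroblast markers stayed at or under 0.190 CPM in sum and the 2 endothelial markers found at or under 0.345 CPM. The 2 adipocyte markers found summed to 0.418 to 0.702 CPM at 0 µM and to 0.190 to 0.222 CPM at 1000 µM, with no count of ADIPOQ in either group. No marker was at 0 in every library, and the part of these markers in the results was not tested. In bulk RNA, fewer cells of a type and less RNA per cell cannot be told apart.

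Per kilobase of exon, the 9 genes spanned a wide range in the untreated cells. HADHA was highest at 89.8 ± 3.12 RPKM (reads scaled to kilobases of exon and to the TMM library size, with SD, n = 3, as for all means below), followed by PLIN2 at 75.5 ± 3.90 and ACADVL at 69.4 ± 0.256 RPKM. ACADM stood at 12.4 ± 1.40, CPT1A at 6.75 ± 0.299, CPT2 at 3.11 ± 0.0656 and PPARA at 2.04 ± 0.0929 RPKM. ANGPTL4 reached 0.139 ± 0.0383 RPKM, and PDK4 had no count in any of the 3 control libraries. Each neighbour in this order was separated from the next by more than their SDs. At 1000 µM the order changed at the top, where PLIN2 at 139 RPKM lay above HADHA at 78.5 RPKM. Lengths are the joined exons of a gene in GENCODE v29, so a gene with long untranslated ends such as PPARA is set lower on this scale than by its most used transcript.

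The receptor gene PPARA lies on chromosome 22 at 46150521-46243756 (GRCh38, plus strand, protein-coding). Its level was 26.6, 28.4 and 26.0 CPM in the controls. The libraries of 0.01 µM had 42.0, 30.4 and 30.7 CPM, those of 0.1 µM had 36.1, 39.3 and 28.5, those of 1 µM had 33.9, 33.4 and 27.1, and those of 10 µM had 33.1, 36.3 and 35.6. The libraries of 100 µM had 24.8, 27.5 and 33.1 CPM, and those of 1000 µM had 30.0, 27.9 and 30.0. All libraries at 0.01, 0.1 and 10 µM were above the highest control, as were those of 15.7%, 10.1% and 22.4% of all genes tested, while the other groups overlapped with the controls. The log2 difference from the controls was 0.35 at 0.01 µM (SE 0.14, adjusted p = 0.126, by the quasi-likelihood test of edgeR, with the Benjamini-Hochberg adjustment over all genes, as for each adjusted p below), 0.36 at 0.1 µM (adjusted p = 0.231), 0.22 at 1 µM (adjusted p = 0.347) and 0.37 at 10 µM (SE 0.14, adjusted p = 0.0605). At 100 µM it was 0.08 (adjusted p = 0.768), and at 1000 µM it was 0.12 with a 95% interval of -0.17 to 0.41 (adjusted p = 0.521). The 10 µM difference passed with DESeq2 (adjusted p = 0.037) and when only the 6 samples of the pair were fitted (adjusted p = 0.00706). It passed in 3 of the 21 fits that each left out 1 library (adjusted p 0.0279 to 0.16). These were without 0.01 µM replicate 1 (adjusted p = 0.0279), 0.1 µM replicate 3 (0.0439) or 1 µM replicate 3 (0.0461). The mitochondrial share of counts was 6.48% to 11.3% in the 10 µM libraries against 6.94% to 7.86% in the controls, and its part in the difference was not tested. Against the mean of the 5 lower caffeine concentrations, PPARA at 1000 µM differed by -0.16 (95% interval -0.39 to 0.07, adjusted p = 0.289).

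CPT1A, on chromosome 11 at 68754620-68844410 (minus strand), encodes the liver form of the enzyme that attaches long-chain fatty acids to carnitine at the outer mitochondrial membrane, the rate-controlling step of their entry. It had 46.5, 43.7 and 42.7 CPM in the controls and 91.8, 76.1 and 69.4 CPM at 1000 µM. In the 15 libraries at 0.01 to 100 µM it ranged from 38.8 to 50.2 CPM with a median of 42.8. The 3 libraries at 1000 µM were thus above all 18 others, with no overlap. The mean went from 44.3 ± 1.96 in the controls to 79.1 ± 11.5 CPM, a log2 difference of 0.84 (SE 0.10, 95% interval 0.63 to 1.04, adjusted p = 6.99e-06). By p-value CPT1A ranked 300 of the 17468 genes tested. Against 100 µM the difference was 0.88 (adjusted p = 1.24e-05), and against the mean of 0.01 to 100 µM it was 0.86 (SE 0.07, adjusted p = 6.47e-08).

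CPT2, on chromosome 1 at 53196429-53214197 (plus strand), encodes the partner enzyme that takes the fatty acid off carnitine inside the mitochondrion. Its level was 32.3, 33.2 and 31.9 CPM in the controls, 27.7, 28.5 and 30.9 CPM at 100 µM, and 26.5, 24.0 and 25.1 CPM at 1000 µM. The libraries at 1000 µM were below all 18 others, and those at 100 µM were below the 3 controls, as for 22% of all genes. The mean went from 32.5 ± 0.685 in the controls to 25.2 ± 1.26 CPM, a log2 difference of -0.37 (SE 0.08, 95% interval -0.53 to -0.20, adjusted p = 0.00109). The difference at 100 µM was -0.16 (SE 0.08, adjusted p = 0.193), and that of 1000 µM from 100 µM was -0.20 (adjusted p = 0.0823), neither past the threshold. The difference from the mean of 0.01 to 100 µM was -0.32 (SE 0.06, adjusted p = 0.000632). The exons of CPT2 overlap on the opposite strand with those of C1orf123, now named CZIB, which went from 29.4 to 21.2 CPM (log2 difference -0.47, SE 0.10, adjusted p = 0.00141). The strand setting of the counting is not given in the sources used here, so reads from the overlap of these genes cannot be told apart.

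The 2 carnitine enzymes moved in opposite directions, and their count ratio within a library, which no scaling between libraries can alter, is given as a description. The ratio of CPT1A to CPT2 was 1.44, 1.32 and 1.34 in the controls and 3.46, 3.17 and 2.77 at 1000 µM, and it lay between 1.15 and 1.64 in the 18 libraries below 1000 µM. Since CPT1A was above and CPT2 below all 18, the ratio had to stand apart, and no test of it is given. Of the other genes of the carnitine shuttle, 4 were tested and none passed at 1000 µM against the controls (41.2% of all genes passed). SLC25A20, the carrier that moves acylcarnitines across the inner membrane, differed by -0.35 (adjusted p = 0.0523), and CPT1B, the muscle form of the first enzyme, by -0.58 (adjusted p = 0.0541); these were named after their values were seen.

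**Figure D2:**
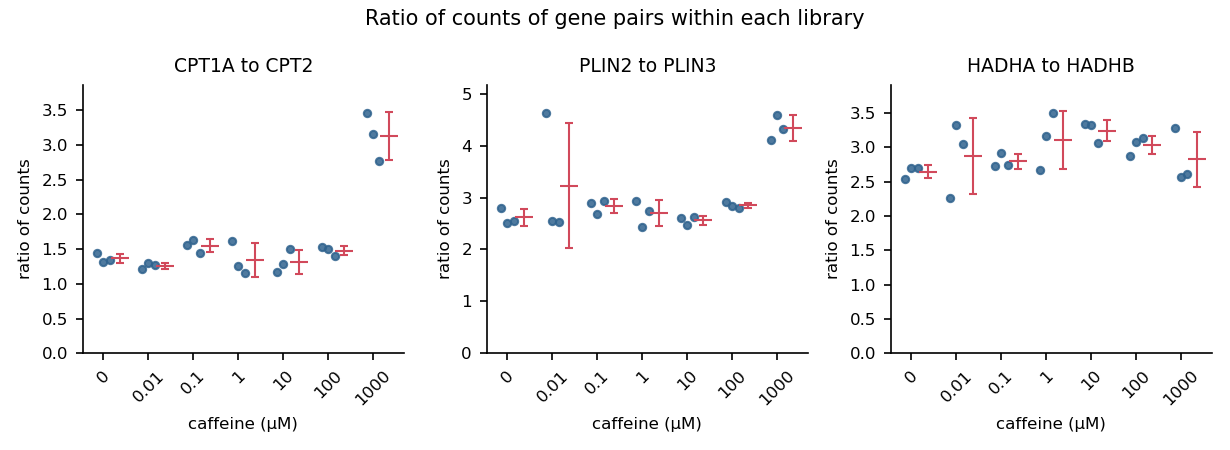
Ratio of counts within each library for CPT1A to CPT2, PLIN2 to PLIN3 and HADHA to HADHB, by caffeine concentration (µM); points are libraries, and red marks give the mean and the SD of 3. The first ratio is 2.77 to 3.46 at 1000 µM and at most 1.64 elsewhere, the second is 4.11 to 4.60 at 1000 µM with 1 library at 0.01 µM at 4.62, and the third overlaps between concentrations.

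None of the 3 enzymes of the spiral passed the test at 1000 µM. ACADVL (chromosome 17, 7217125-7225273, plus strand) starts the oxidation of very long fatty acyl chains. It had 339.1, 337.0 and 337.0 CPM in the controls and 317.7, 319.1 and 264.3 CPM at 1000 µM, all below the controls. At 1000 µM, 53.2% of all genes had no overlap with the controls. ACADVL was below the controls in all libraries at 0.01, 1, 10 and 100 µM too, as were 22% of all genes at 100 µM. Its lowest value of all, 221.4 CPM, was in the 0.01 µM replicate 1, the library farthest from its group. The log2 difference at 1000 µM was -0.17 (SE 0.11, 95% interval -0.41 to 0.07, adjusted p = 0.249), and it was -0.04 against the mean of 0.01 to 100 µM (adjusted p = 0.768). DLG4, whose exons overlap those of ACADVL on the opposite strand, went from 4.97 to 6.98 CPM (log2 difference 0.49, adjusted p = 0.038).

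ACADM (chromosome 1, 75724347-75787575, plus strand) starts the oxidation of medium-length chains. It had 61.7, 51.5 and 64.2 CPM in the controls and 60.8, 69.3 and 77.3 CPM at 1000 µM, and these groups overlapped. The log2 difference was 0.23 (SE 0.10, 95% interval 0.01 to 0.44, adjusted p = 0.082). It passed with DESeq2 (adjusted p = 0.0434), without the control replicate 3 (adjusted p = 0.0426) and without the 1000 µM replicate 1 (adjusted p = 0.0176). These were the only 2 of the 21 fits without 1 library in which it passed. Across the 21 the adjusted p reached 0.347, and the lowest difference was 0.14, without the control replicate 2. The 3 libraries at 0.01 µM had 78.7, 65.5 and 65.8 CPM, and all 15 libraries from 0.01 to 100 µM ranged from 55.2 to 78.7 CPM. The exons of ACADM overlap on the same strand with those of RABGGTB, which differed by 0.30 (adjusted p = 0.0844).

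HADHA (chromosome 2, 26190635-26244726, minus strand) encodes the alpha subunit of the mitochondrial trifunctional protein, which carries out the later steps on long chains. It had 409.0, 382.6 and 389.8 CPM in the controls and 358.7, 349.8 and 324.4 CPM at 1000 µM, without overlap, as for 53.2% of all genes. The log2 difference was -0.19 (SE 0.08, 95% interval -0.37 to -0.02, adjusted p = 0.0722). It passed in 1 of the 21 fits without 1 library (adjusted p 0.0449 to 0.244), the one without the 0.01 µM replicate 1. The 15 libraries at lower caffeine concentrations ranged from 330.9 to 412.6 CPM, and the difference from their mean was -0.11 (adjusted p = 0.214). HADHB, the beta subunit of the same protein, differed by -0.27 from the controls (adjusted p = 0.121). The ratio of HADHA to HADHB was 2.65 ± 0.0906 at 0 µM and 2.82 ± 0.403 at 1000 µM, and at 1000 µM it lay within the range of the 18 other libraries, 2.26 to 3.497.

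PLIN2, on chromosome 9 at 19108375-19149290 (minus strand), encodes the main lipid droplet coat protein of hepatocytes. It had 404.2, 382.5 and 364.6 CPM in the controls, 414.9, 426.6 and 400.5 CPM at 100 µM, and 658.8, 747.2 and 710.6 CPM at 1000 µM. From 0.01 to 100 µM its values ranged from 324.3 to 426.6 CPM with a median of 357.7, so the 1000 µM libraries were far above all 18 others. The mean went from 384 ± 19.8 in the controls to 706 ± 44.4 CPM, a log2 difference of 0.88 (SE 0.08, 95% interval 0.72 to 1.04, adjusted p = 2.86e-07), which ranked 67 of 17468 by p-value. The difference from 100 µM was 0.77 (adjusted p = 3.68e-06) and that from the mean of 0.01 to 100 µM was 0.93 (SE 0.06, adjusted p = 8.99e-10). At 100 µM, PLIN2 differed from the controls by 0.11 (adjusted p = 0.389).

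PLIN3, the coat protein found on many cell types' droplets, served as a partner for PLIN2 within a library. The PLIN2 to PLIN3 ratio was 2.81, 2.50 and 2.54 in the controls and 4.11, 4.60 and 4.32 at 1000 µM. In the 18 libraries below 1000 µM it ranged from 2.44 to 4.62, and the value of 4.62 came from the 0.01 µM replicate 1, where PLIN3 had 77.1 CPM. The 3 values at 1000 µM were below that library and above all the remaining ones.

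The promoters of PLIN2 and CPT1A, the 2 genes that rose, are shown because both genes rose at the same concentration. The stretches are from RefSeq (GRCh38.p14): chr9:19127573-19127742 for PLIN2, 250 to 81 bases before its start, and chr11:68844411-68844527 for CPT1A, 250 to 134 bases before its start. Both starts are those of RefSeq, whereas the gene spans given above are those of GENCODE v29. The PLIN2 stretch lies inside its GENCODE span (19108375-19149290). The CPT1A stretch stops short of annotated exons, and that of PLIN2 runs on into one to complete its last motif. Both are given 5′ to 3′ on the minus strand, with capitals for GCGTG, the core of the element bound by the aryl hydrocarbon receptor.
PLIN2: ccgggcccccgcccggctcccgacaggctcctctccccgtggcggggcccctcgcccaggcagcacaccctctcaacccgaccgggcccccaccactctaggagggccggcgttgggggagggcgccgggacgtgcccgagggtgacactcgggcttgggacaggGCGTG
CPT1A: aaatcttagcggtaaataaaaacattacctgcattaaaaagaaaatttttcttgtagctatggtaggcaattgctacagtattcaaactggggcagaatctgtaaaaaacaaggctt
The PLIN2 stretch is rich in G and C and ends with GCGTG, while the CPT1A stretch is rich in A and T and holds none of the letters searched. Over the full 250 bases before the start on both strands, with all 9 genes matched, GCGTG was found in 3 (PPARA, ACADM and PLIN2), and in 31.9% of 27305 promoters. TGACG, the half-site of the cAMP response element, was found in PDK4 alone of the 9 and in 21.7% of all promoters, and the full element TGACGTCA, which contains it, in none of the 9 and in 1.77% of all. AGGTCA, the half-site of nuclear receptors, was in none of the 9 and in 12.1% of all. AGGTCANAGGTCA, the repeat spaced by 1 base in the form PPARA binds, was in none of the 9 and in 0.0183% of all. Only 5 of the 27305 promoters held this repeat, so its absence from the 9 was nearly certain beforehand. Only exact letters within 250 bases were searched, and whether PPARA binds at these genes was not tested.

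ANGPTL4 (chromosome 19, 8363289-8374373, plus strand) was close to the limit of detection. Its raw counts were 10, 8 and 14 in the controls. The libraries of 0.01 µM had 5, 10 and 10 counts, those of 0.1 µM had 7, 6 and 9, those of 1 µM had 7, 7 and 9, and those of 10 µM had 10, 11 and 6. The libraries of 100 µM had 18, 11 and 15 counts, and those of 1000 µM had 20, 21 and 14. The libraries at 1000 µM overlapped with the controls and with those at 100 µM, and lay above those at 0.01 to 10 µM. Means were 0.346 ± 0.0951 CPM in the controls, 0.437 ± 0.105 with 100 µM and 0.516 ± 0.0715 with 1000 µM. Against the controls the log2 difference at 1000 µM was 0.57 (SE 0.33, 95% interval -0.13 to 1.27, adjusted p = 0.179), which did not pass. From the mean of 0.01 to 100 µM it was 0.89 (SE 0.25, adjusted p = 0.0108), and adjusted p was 0.0531 without the 1000 µM replicate 1. The antisense gene RAB11B-AS1 overlaps its exons and differed by 0.03 (adjusted p = 0.932).

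PDK4 (chromosome 7, 95583499-95596491, minus strand) had 0 counts in all 3 controls and 2, 1 and 3 counts at 1000 µM. In the 15 libraries between, it had 0, 1 or 2 counts. It failed the filter on low counts, and since both groups were at or under 3 counts per library no fold is given.

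**Figure D3:**
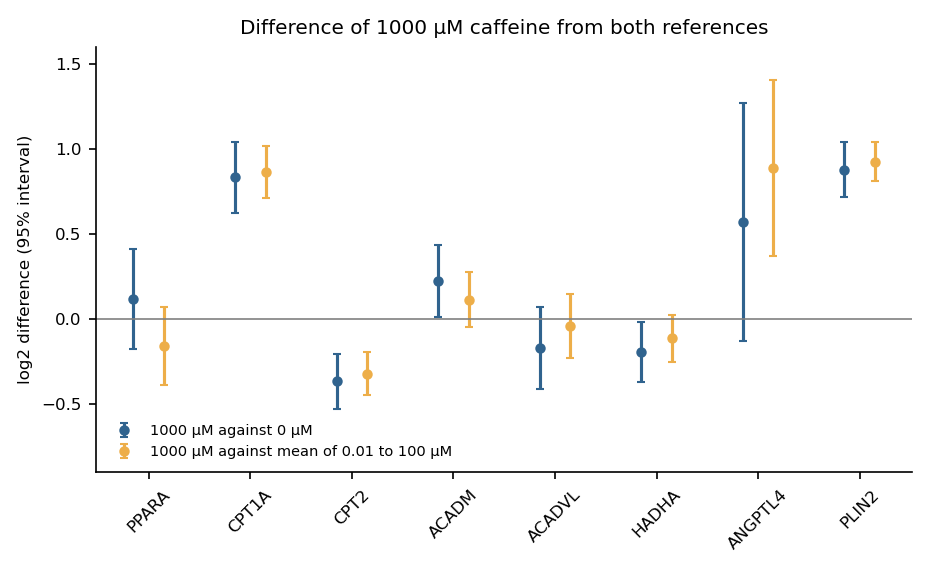
Log2 difference of 1000 µM caffeine from the 0 µM controls (blue) and from the mean of 0.01 to 100 µM (orange) for the 8 genes tested, with 95% intervals. For PLIN2, CPT1A and CPT2 both intervals stay clear of 0, and for ANGPTL4 the interval against the controls is -0.13 to 1.27.

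In all, 3 of 8 genes passed at 1000 µM against the controls, where 41.2% of all 17468 genes did, and 2 of the 3 were higher (20.6% of all genes) and 1 lower (20.6%). Their share is thus near that of genes at large. At an unadjusted p under 0.05, 5 of 8 did (49.4% of all genes): the 3 named and ACADM and HADHA. The median log2 difference was 0.17 over the 8 genes and -0.03 over all genes. Against the mean of 0.01 to 100 µM, 4 of 8 passed (30.5% of all), with 3 higher (16.3%) and 1 lower (14.2%), and the medians were 0.04 and -0.02. Against 100 µM, 2 of 8 passed (14.7% of all). These comparisons share the 1000 µM libraries. The mitochondrial share of counts was 6.94% to 10.3% at 1000 µM against 6.94% to 7.86% in the controls, and with that share as a covariate, an alternative added after seeing the data, 3 of 8 genes passed against the controls. CPT1A and PLIN2 were among the 8.1% of genes whose 3 values at 1000 µM were above all 18 others, and CPT2 among the 5.26% below all others. Libraries at 1000 µM had no overlap with the controls for 5 of 8 genes (53.2% of all).

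Across the 7 concentrations at once, 4 of 8 genes differed (28.1% of all genes): PLIN2 (adjusted p = 1.21e-07), CPT1A (adjusted p = 7.05e-06), CPT2 (adjusted p = 0.00849) and ANGPTL4 (adjusted p = 0.0492). The ANGPTL4 result passed in 5 of the 21 fits that each left out 1 library (adjusted p 0.0408 to 0.115) and did not with DESeq2 (adjusted p = 0.133), and CPT2 had an adjusted p of 0.0615 without 1000 µM replicate 2. PPARA (adjusted p = 0.15), ACADM (0.179), HADHA (0.354) and ACADVL (0.616) did not pass. A straight line over the 7 concentration steps had a slope per step of 0.11 for PLIN2 (adjusted p = 0.00315), 0.10 for CPT1A (adjusted p = 0.0105) and -0.05 for CPT2 (adjusted p = 0.0123), so 3 of 8 passed (29% of all genes). Without 1000 µM replicate 1 the adjusted p of the CPT1A slope was 0.0516. Without the 1000 µM samples none of the 8 slopes passed, and CPT1A had a slope of -0.00582.

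At lower concentrations none of the 8 genes passed against the controls. Of all genes, 4.95% passed with 0.01 µM, 0% with 0.1 µM, 0% with 1 µM, 22% with 10 µM and 6.02% with 100 µM. At an unadjusted p under 0.05, PPARA and ACADM did at 0.01 µM (26.1% of all genes), PPARA did with 0.1 µM (15.2%) and with 10 µM (35.9%), CPT2 did with 100 µM (25.6%), and none did with 1 µM (22.8%). These comparisons share the 3 control samples. At 100 µM against the mean of 0.01 to 10 µM, a comparison added after seeing the data, none passed (0.447% of all genes), with 0.20 for PLIN2 (SE 0.06, adjusted p = 0.236) and 0.81 for ANGPTL4 (SE 0.26, adjusted p = 0.282).

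Beyond the 9 genes, a list of 87 genes of the pathway in 10 role groups was examined. Of these, 84 were found, 74 were tested, 10 failed the filter on low counts and 3 were not analysed here. At 1000 µM against the controls 10 were higher (13.5%, against 20.6% of all genes) and 33 lower (44.6%, against 20.6%), with a median log2 difference of -0.26 against -0.03 over all genes. Against the mean of 0.01 to 100 µM, 11 were higher (14.9%, against 16.3% of all genes) and 23 lower (31.1%, against 14.2%). Of these, 9 and 21 passed in both comparisons. Without 1000 µM replicate 3 the 34 genes past the threshold in the latter became 19.

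Of 13 regulators tested, 7 rose (20.6% of all genes rose) and 2 fell (20.6%) at 1000 µM against the controls. PPARGC1A, the coactivator that works with PPARA in fasting liver, went from 7.36 ± 0.578 to 15.7 ± 2.82 CPM (log2 difference 1.09, adjusted p = 9.83e-05). PRKAA2, a catalytic subunit of AMP-activated kinase, went from 19.6 ± 1.26 to 39.1 ± 3.54 CPM (0.99, adjusted p = 0.00108). Its highest value, 43.8 CPM, was in the 0.01 µM replicate 1, the library farthest from its group. ESRRA, a nuclear receptor partner of PPARGC1A, fell by 0.53 (adjusted p = 0.0089), but differed by -0.05 from the mean of 0.01 to 100 µM (adjusted p = 0.792). MLYCD, which degrades the CPT1 inhibitor malonyl-CoA, fell by 0.49 (adjusted p = 0.00229). PPARG, the receptor known from fat cells, went from 15.6 ± 1.20 to 26.1 ± 2.79 CPM (0.75, adjusted p = 9.99e-05); it was named after its values were seen. RXRA, the PPARA partner, differed by -0.09 (adjusted p = 0.427), and RXRB rose by 0.64 (adjusted p = 0.00304). NCOR1, another of the regulators that rose, differed by 0.74 (adjusted p = 0.000532). Its difference from the mean of 0.01 to 100 µM was 0.16 (adjusted p = 0.278). RXRA, RXRB and NCOR1 were named after their values were seen.

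Of 9 genes of uptake and activation, 2 rose (20.6% of all genes rose) and 3 fell (20.6%). ACSL3, which activates fatty acids for storage in droplets, went from 182 ± 16.1 to 290.0 ± 18.1 CPM (log2 difference 0.67, adjusted p = 7.72e-06), and ACSL5 rose by 0.33 (adjusted p = 0.0052). FABP1, the abundant fatty acid binding protein of liver, went from 169 ± 22.9 to 83.8 ± 15.8 CPM (-1.01, adjusted p = 0.00011). SLC27A5, a liver acyl-CoA ligase for bile acids and fatty acids, fell by 0.97 (adjusted p = 0.000344).

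Of 13 further genes of mitochondrial beta-oxidation, 8 fell (20.6% of all genes fell) and none rose (20.6%). ECHS1, the short-chain enoyl-CoA hydratase, had 219.8, 201.4 and 164.8 CPM in the controls and 88.1, 111.2 and 78.8 CPM at 1000 µM (log2 difference -1.08, adjusted p = 0.000707). ACADS, the short-chain partner of ACADM and ACADVL, fell by 0.93 (adjusted p = 0.00179). When compared with the mean of 0.01 to 100 µM only 2 of the 13 passed, both lower, and ECHS1 (-0.40, adjusted p = 0.0826) and ACADS (-0.30, adjusted p = 0.185) did not. The 2 that did, ECI2 (-0.34, adjusted p = 0.00236) and ACAD9 (-0.26, adjusted p = 0.0213), were named after their values were seen.

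In the peroxisome, 3 of 7 genes fell (20.6% of all genes fell). EHHADH, the bifunctional enzyme and a known PPARA target, had 51.4, 46.1 and 50.4 CPM in the controls and 30.6, 34.1 and 31.1 CPM at 1000 µM (log2 difference -0.63, adjusted p = 0.000289, and -0.77 against the mean of 0.01 to 100 µM, adjusted p = 5.05e-06). The thiolase ACAA1 fell by 0.51 (adjusted p = 0.00785), and its difference from the mean of 0.01 to 100 µM was -0.20 (adjusted p = 0.184). Among 7 other PPARA targets 1 rose (20.6% of all genes rose) and 5 fell (20.6%). VNN1 went from 0.917 ± 0.247 to 1.69 ± 0.302 CPM (0.87, adjusted p = 0.0279), UCP2 from 19.9 ± 2.01 to 9.39 ± 1.14 CPM (-1.09, adjusted p = 4.48e-05) and FABP3 from 2.26 ± 0.554 to 1.13 ± 0.184 CPM (-0.997, adjusted p = 0.00502). The genes called PPARA targets so far that passed the test were on both sides. CPT1A, PLIN2 and VNN1 (14 to 72 counts per library) were higher, and EHHADH, UCP2 and FABP3 were lower. ANGPTL4 did not pass against the controls and PDK4 was not tested. Genes not called targets here were left out, among them FABP1, ACAA1 and CPT2 (lower) and ACSL3 (higher). The balance of the 2 sides therefore depends on which genes are called targets. Also lower among the 7 were ACOT1 (-0.92, adjusted p = 0.000235), SLC25A42 (-0.84, adjusted p = 1.21e-05) and ACOT2 (-0.49, adjusted p = 0.0136). ACOT2 differed by 0.003 from the mean of 0.01 to 100 µM (adjusted p = 0.993). ACOT1, SLC25A42 and ACOT2 were named after their values were seen.

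**Figure D4:**
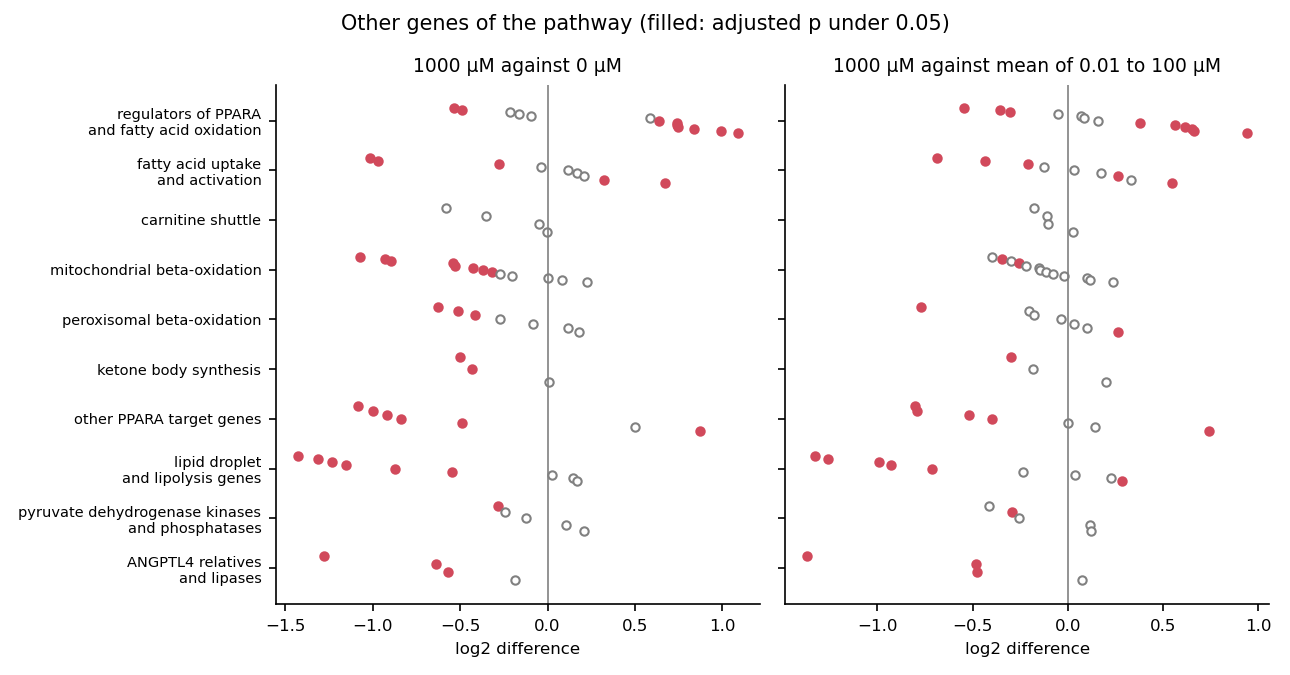
Log2 difference of each tested gene of the pathway list at 1000 µM caffeine, against the 0 µM controls (left) and against the mean of 0.01 to 100 µM (right), 1 row per role group; filled points have an adjusted p under 0.05. Regulators hold 7 of the 10 genes that rose in the left panel, and 8 mitochondrial beta-oxidation genes are filled there against 2 in the right panel.

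PLIN2 also differed from its relatives on the lipid droplet. Of 9 other droplet and lipolysis genes, 6 fell (20.6% of all genes fell) and none rose (20.6%) against the controls. CIDEC, which enlarges droplets by fusion, had 37.2, 36.2 and 33.1 CPM in the controls and 15.3, 15.9 and 14.04 CPM at 1000 µM (log2 difference -1.23, adjusted p = 2.56e-06). PLIN4 had 21.3, 23.7 and 22.4 CPM against 11.4, 9.5 and 9.3 CPM (-1.15, adjusted p = 1.2e-05). In CIDEC and PLIN4 the 1000 µM libraries were below every other library, as for 5.26% of all genes. Both were named for their large fold at this same concentration. PLIN1 (-1.31, adjusted p = 0.0179) and PLIN5 (-1.43, adjusted p = 0.00709), both under 1 CPM, were lower too, and PLIN3 differed by 0.15 (adjusted p = 0.42); these 3 were named after their values were seen. PLIN2 was therefore the 1 perilipin of the 5 that rose against the controls, while against the mean of 0.01 to 100 µM PLIN3 rose by 0.29 as well (adjusted p = 0.0484).

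The genes whose log2 level across the 21 libraries was most like that of a member were taken among 12437 genes, as a description in which all libraries are shared and the 1000 µM group carries much of the spread. For PLIN2 they included IGFBP1, a secreted binder of insulin-like growth factors (r = 0.981, 43.4 ± 6.83 CPM at 0 µM and 300 ± 5.79 at 1000 µM) and GABARAPL1, an autophagosome protein (r = 0.976). For CPT1A they were ZBTB46 (r = 0.948), the secreted glycoprotein STC2 (r = 0.938) and the Wnt receptor FZD4 (r = 0.937). For CPT2 they were SH3RF2 (r = 0.92), C1orf116 (r = 0.915) and LINC01963 (r = 0.911), which also had lower means at 100 µM than at 0 µM. For ANGPTL4, with its few counts, they were HMGB2 (r = 0.899), SPIN2B (r = 0.892) and TMEM51 (r = 0.884).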

How the data were processed

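The deposited table holds whole-number read counts per feature; the authors used HISAT2, DESeq2 and GRCh38, per the submitters' processing notes. The counting program, annotation and strand setting are not given in the sources used here. Of its columns, 21 belong to the samples and 21 others of per-sample values were not used. Members, lists and tests were chosen with earlier results of these data known. Symbols matched 24843 of 32937 Ensembl IDs, and 4700 features are unannotated.

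Genes were kept by edgeR's filter (minimum count 10), which left 17468, scaled by TMM and fitted once over 21 samples in 7 groups with edgeR 4.0.16 (R 4.3.3) by the quasi-likelihood test, with 14 residual degrees of freedom. Adjusted p is Benjamini-Hochberg over all genes tested, with a threshold of 0.05. SE is the log2 difference over the root of F. CPM uses the TMM library size, and RPKM also the GENCODE v29 exon length. DESeq2 1.42.0 was an alternative. The 3 ratios and 2 added alternatives were chosen after seeing the data.

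From the pathway list, up to 2 higher and 2 lower genes per role were named, those past the threshold at 1000 µM against 0 µM with the largest fold and a mean of at least 1 CPM. Genes most alike are the 3 with the highest Pearson r for the 4 members with the smallest p among groups. A few genes that these rules or lists name are not reported here. No pairing of samples by replicate number was seen, and none was fitted, which cannot exclude one. The design text calls the replicates biological without saying how they were separated, so p-values measure only the spread between these samples, which may be technical. Scripts were tested on simulated data.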

Additional observations from a re-analysis of the deposited data

How the results depend on the processing

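PLIN2, CPT1A and CPT2 passed at 1000 µM against 0 µM in all 21 fits that left out 1 library, with log2 differences of 0.86 to 0.95, 0.74 to 0.92 and -0.38 to -0.31. The count of members that passed at 10 µM became 1 (PPARA) with DESeq2 and with only the 6 samples, and ranged from 0 to 1 in fits without 1 library (1 without 0.01 µM replicate 1, 0.1 µM replicate 3 or 1 µM replicate 3). The count among the 7 groups, 4 as reported, was 2 with no filter and 0 without the 3 samples at 1000 µM, and 2 to 4 without 1 library. The slope count, 3, became 0 without the samples at 1000 µM and was 2 to 4 without 1 library. At 1000 µM the counts were 3 to 4 against 0 µM, 2 to 2 against 100 µM and 3 to 4 against the lower concentrations, and the other concentrations gave 0 to 0. In the pathway list the 43 genes past the threshold against 0 µM became 31 to 46 without 1 library, and the 34 against the lower concentrations became 19 to 36 (19 without 1000 µM replicate 3). A replicate block left every count of members as it was except among the groups, where it was 3 since ANGPTL4 had an adjusted p of 0.0823. The block gave 40 and 34 pathway genes. Same-numbered samples had correlations of -0.596 to 0.367 (median 0.0352), and 4 of 21 libraries were closest to their own number. No pairing by number was seen, though such correlations in groups of 3 cannot exclude one.

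The differences that changed sign passed the test neither as reported nor after the change, except the CPT1A slope, called as reported, which was -0.00582 without the 1000 µM samples, where the PPARA slope was 0.00852. With no filter ACADM at 0.1 µM was 0.000158, and with only the 6 samples it was 0.0037; the ACADVL slope was 0.00576 over the 18 treated samples. At 100 µM against the mean of 0.01 to 10 µM, PPARA was -0.25, ACADVL 0.044 and HADHA 0.012. Leaving out 1 library, log2 differences from 0 µM ranged across 0 for CPT2 at 0.01 µM (-0.031 to 0.039), ACADM (-0.11 to 0.0496), HADHA (-0.023 to 0.058) and PLIN2 (-0.043 to 0.079) at 0.1 µM, CPT1A (-0.15 to 0.0024), CPT2 (-0.062 to 0.037) and ACADM (-0.046 to 0.12) at 1 µM, CPT1A at 10 µM (-0.10 to 0.036) and PPARA at 100 µM (-0.045 to 0.17). The same held for 1000 µM against 100 µM in PPARA (-0.033 to 0.16), ACADM (-0.015 to 0.18) and ACADVL (-0.11 to 0.0082), against the lower concentrations in ACADVL (-0.075 to 0.044) and for the PPARA slope (-0.019 to 0.0051). The cause of these changes was not tested. Genes with few counts, ANGPTL4 and PDK4, are limited by depth.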

Other observations

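Of 4 relatives of ANGPTL4 and lipases tested, 3 fell at 1000 µM against the controls (20.6% of all genes fell) and none rose (20.6%). LIPC, the hepatic lipase, went from 14.2 ± 0.222 to 9.11 ± 0.490 CPM (SD, n = 3; log2 difference -0.64, edgeR adjusted p = 2.89e-05), and LMF1, which helps lipases fold, from 2.96 ± 0.751 to 1.99 ± 0.485 CPM (-0.57, edgeR adjusted p = 0.0283). Against the mean of 0.01 to 100 µM all 3 that fell passed as well, where 14.2% of all genes were lower.

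Of 3 genes of ketone body synthesis tested, 2 fell at 1000 µM against the controls (20.6% of all genes fell). BDH1, which makes beta-hydroxybutyrate, went from 32.9 ± 3.22 to 23.2 ± 1.93 CPM (log2 difference -0.50, edgeR adjusted p = 0.00061). Among 5 kinases and phosphatases of pyruvate dehydrogenase, PDK3 alone passed, from 14.8 ± 0.121 to 12.1 ± 0.647 CPM (-0.28, edgeR adjusted p = 0.0401). PDK4, its relative, had at most 3 counts in any of the 21 libraries.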
